A study of Mus musculus with 4 samples.

Results

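The 34 genes described here encode the enzymes that carry glucose to lactate or into the mitochondrion, and those that build and break down glycogen. They were taken as a list of symbols, and all 34 were found among 21887 protein-coding genes of the RefSeq annotation of GRCm38.p6, the assembly behind mm10. PHF2 belongs to the JmjC family of chromatin proteins and reads histone marks through its PHD finger. Its sites were mapped by CUT&RUN, which releases the DNA around an antibody's target with a tethered nuclease. The tissue was gastrocnemius, a calf muscle, from 4-week-old male C57BL/6 mice. All animals carried the floxed allele (Phf2 flox/flox), and those called KO also carried Acta1 Cre, which is driven by the skeletal actin gene and acts in muscle fibres, so that other cells of the tissue keep the gene. Those called Ctrl had no Cre. For each genotype there was 1 library made with anti-PHF2 and 1 made with IgG, which has no chosen target. Anti-PHF2 gave 1621 peaks in Ctrl and 161 in KO, and IgG gave 77 and 152, in the lists deposited by the authors. Whether tissue was pooled is not stated. With 1 library in each of the 4 groups there is no replicate and no test across samples, and every interval below is a 95% interval for counting error only. A gene was counted as having a peak if at least 1 bp of a peak lay in its annotated body or within 5 kb on either side.

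Glycolysis turns glucose into pyruvate, with phosphofructokinase and pyruvate kinase as its main controlled steps, and lactate dehydrogenase lets it run when oxygen is short. Muscle stores glucose as glycogen, which glycogen synthase builds and glycogen phosphorylase breaks down, the latter switched on by phosphorylase kinase during contraction. Many of these enzymes exist as several forms from separate genes, and adult fast muscle such as most of the gastrocnemius uses particular ones, among them Pfkm, Pgam2, Eno3, Gys1 and Pygm.

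Promoter sequences are shown for genes on which the results turn: the mutase pair Pgam2 and Pgam1, of which the muscle form alone had a peak; the targeting subunits Ppp1r3a and Ppp1r3c, whose peaks covered the start of very different promoters; Ugp2 and Phkb, where the whole stretch lay under a peak; and Ldha, which had the most tags. Each is the 250 bases before a RefSeq transcription start (GRCm38.p6), read 5′ to 3′ on the strand of the gene. Capitals mark matches on either strand to 7 motifs, which are given here with the share of all 32851 promoters of this length that hold them. The GC box was searched as GGGCGG (32.7%). The E-box, where N is any base, was CANNTG (66.2%). Its canonical form was CACGTG (6.02%). The TATA box was searched as TATAAA (12.4%). The AP-1 site was TGANTCA (6.75%). The cAMP response element was searched as TGACGTCA (1.55%). The MEF2 site was searched in a loose form of its consensus, with any base allowed at the middle positions (3.20%). A MEF2 match here therefore need not meet the full consensus. Canonical E-boxes are a subset of E-boxes, and matches that overlap run together.
Pgam2, chr11:5803797-5804046, minus strand: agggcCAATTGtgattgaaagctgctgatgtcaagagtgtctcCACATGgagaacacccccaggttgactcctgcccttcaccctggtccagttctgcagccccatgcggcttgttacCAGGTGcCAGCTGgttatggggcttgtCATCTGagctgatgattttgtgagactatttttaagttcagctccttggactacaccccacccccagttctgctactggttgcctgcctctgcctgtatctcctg
Pgam1, chr19:41911621-41911870, plus strand: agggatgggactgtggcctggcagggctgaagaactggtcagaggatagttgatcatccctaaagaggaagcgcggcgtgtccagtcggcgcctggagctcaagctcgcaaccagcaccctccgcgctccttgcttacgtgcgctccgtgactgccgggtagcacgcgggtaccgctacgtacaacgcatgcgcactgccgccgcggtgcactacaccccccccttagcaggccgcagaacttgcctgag
Ppp1r3a, chr6:14755275-14755524, minus strand: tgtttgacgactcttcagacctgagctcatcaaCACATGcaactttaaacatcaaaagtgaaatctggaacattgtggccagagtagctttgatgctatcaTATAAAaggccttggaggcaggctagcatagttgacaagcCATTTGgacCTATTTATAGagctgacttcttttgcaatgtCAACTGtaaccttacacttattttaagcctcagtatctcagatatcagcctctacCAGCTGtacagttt
Ppp1r3c, chr19:36736605-36736854, minus strand: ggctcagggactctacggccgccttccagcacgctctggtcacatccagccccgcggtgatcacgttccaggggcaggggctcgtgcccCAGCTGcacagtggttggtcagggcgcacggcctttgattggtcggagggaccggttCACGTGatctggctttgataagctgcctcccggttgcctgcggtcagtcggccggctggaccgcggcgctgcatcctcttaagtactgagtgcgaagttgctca
Ugp2, chr11:21370630-21370879, minus strand: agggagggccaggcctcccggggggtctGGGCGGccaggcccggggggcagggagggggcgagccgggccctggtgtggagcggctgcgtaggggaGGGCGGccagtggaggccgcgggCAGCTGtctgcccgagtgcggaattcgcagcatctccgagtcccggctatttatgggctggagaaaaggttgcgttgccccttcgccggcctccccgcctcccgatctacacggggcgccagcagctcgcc
Phkb, chr8:85840738-85840987, plus strand: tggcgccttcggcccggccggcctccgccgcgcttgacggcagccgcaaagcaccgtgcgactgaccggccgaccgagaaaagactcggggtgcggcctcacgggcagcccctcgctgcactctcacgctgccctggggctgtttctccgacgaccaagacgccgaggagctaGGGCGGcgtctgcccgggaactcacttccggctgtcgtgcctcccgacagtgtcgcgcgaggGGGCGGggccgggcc
Ldha, chr7:46845554-46845803, plus strand: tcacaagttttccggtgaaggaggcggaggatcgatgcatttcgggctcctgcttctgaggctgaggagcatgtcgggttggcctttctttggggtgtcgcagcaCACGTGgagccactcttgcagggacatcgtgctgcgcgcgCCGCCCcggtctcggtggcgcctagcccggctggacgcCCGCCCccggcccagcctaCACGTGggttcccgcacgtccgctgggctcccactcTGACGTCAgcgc

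These sequences differ in composition. Pgam2 had 1 CpG in 250 bases, with 5 E-boxes, a number reached by 1.15% of the 32851 promoters in the table, and 1 CpG or fewer was found in 18.8% of them. Phkg1, a member without a peak, had the same 5 E-boxes and 1 CpG. Pgam1 had 22 CpG and none of the motifs searched. The Ppp1r3a stretch also had 1 CpG, a GC content of 40.4%, 4 E-boxes and a MEF2 match that overlaps a TATAAA on the other strand, whereas Ppp1r3c had 20 CpG, a GC content of 64.4% and a canonical E-box. Phkb had 34 CpG and Ugp2 23. The Ldha stretch held 2 canonical E-boxes and a cAMP response element, which 6.02% and 1.55% of all promoters hold, and none of it lay under the peak. The 250 bases before the second Ldha start, 115 of them under the peak, held 2 E-boxes and no match to the other motifs. A match is a description of the letters and not evidence of a bound factor.

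Of the 34 members, 17 (50%, Wilson interval 34.1 to 65.9) had a Ctrl PHF2 peak. Among all protein-coding genes the share was 7.38%, so that the members' share was 6.78 times as high. At 7.38% a list of 34 would hold 2.51 such genes. The same 17 members had a peak in the gene body itself, against 6.39% of all genes. Members with a peak were 10 of the 23 genes of glucose uptake, glycolysis and pyruvate use, and 7 of the 11 glycogen genes. Counted within 1 kb of a transcription start, the number was 14 of the 33 members whose start is in the table (42.4%, 27.2 to 59.2), against 6.42% of 17492 genes. Gene length differed little between the sets, with a median of 21.8 kb in members with a peak, 17.7 kb in those without and 17.2 kb over all genes. The members were listed with earlier results of these data known, and RNA levels were not measured in these files, so whether the share goes with the activity of these genes in muscle was not tested.

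**Figure D1:**
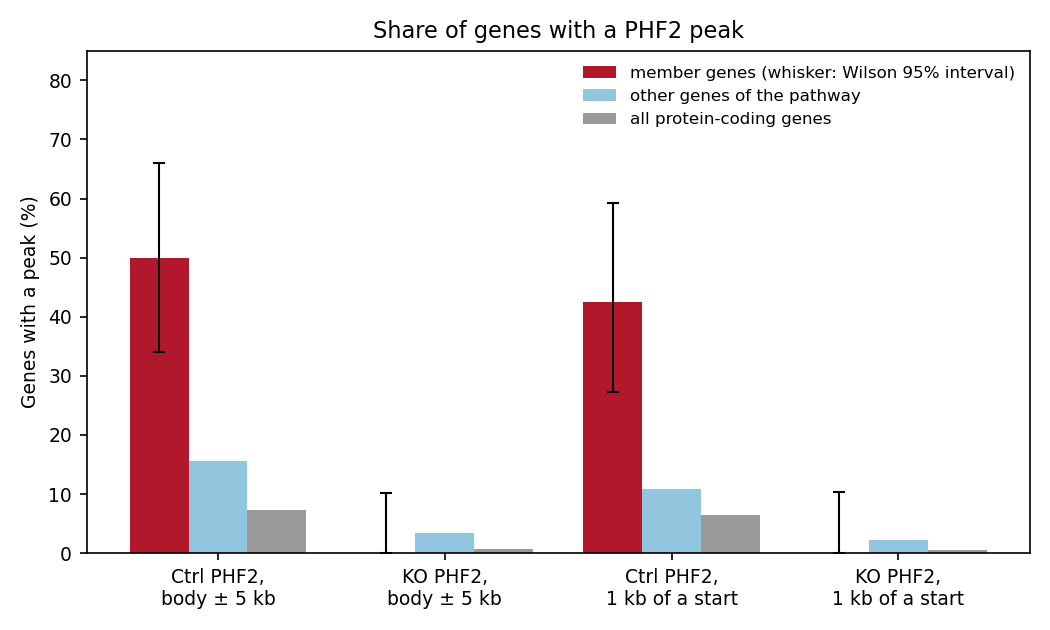
Share of genes with a PHF2 peak (vertical axis, percent) in the Ctrl and KO libraries, by the window of 5 kb around the gene body and within 1 kb of a transcription start. Red bars are the members, with Wilson 95% intervals, blue bars the other genes of the pathway and grey bars all protein-coding genes; in the Ctrl library the members reach 50% and 42.4%, against 7.38% and 6.42% of all genes, and in the KO library they are at 0.

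No member had a peak in the KO PHF2, Ctrl IgG or KO IgG list, so each of the 17 genes had peaks in the Ctrl PHF2 list alone. Of all genes, 6.8% had a Ctrl PHF2 peak and no KO PHF2 peak, whatever the IgG lists held, and 0.576% had a peak in both PHF2 lists. The KO count is 0 of 34, where 0.713% of all genes had a KO PHF2 peak and that share would give 0.242 of 34. It was 0.667% for the gene body alone and 0.56% within 1 kb of a start, with 0 members in each. IgG peaks reached 0.064% of all genes in Ctrl and 0.155% in KO. Read against these backgrounds, the 0 in those lists is no result about the members. The member closest to a KO PHF2 peak was Slc2a4, the glucose transporter gene of muscle and fat, at 270 kb.

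Values at the peaks are those of the Ctrl PHF2 list. Fold enrichment is the authors' ratio of the signal at the summit to the local background, and the number of tags (sequenced fragments) at the summit was recovered from it and from the authors' -log10 p. The 17 genes held 21 peaks, and Pfkfb3, Eno3, Pkm and Ugp2 had 2 each. Their fold enrichment ran from 4.40 to 10.02 with a median of 5.98, against 6.37 over all 1621 peaks, and their tags from 10 to 28 with a median of 15, as in the whole list. Member peaks were therefore of ordinary height for this library.

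**Figure D2:**
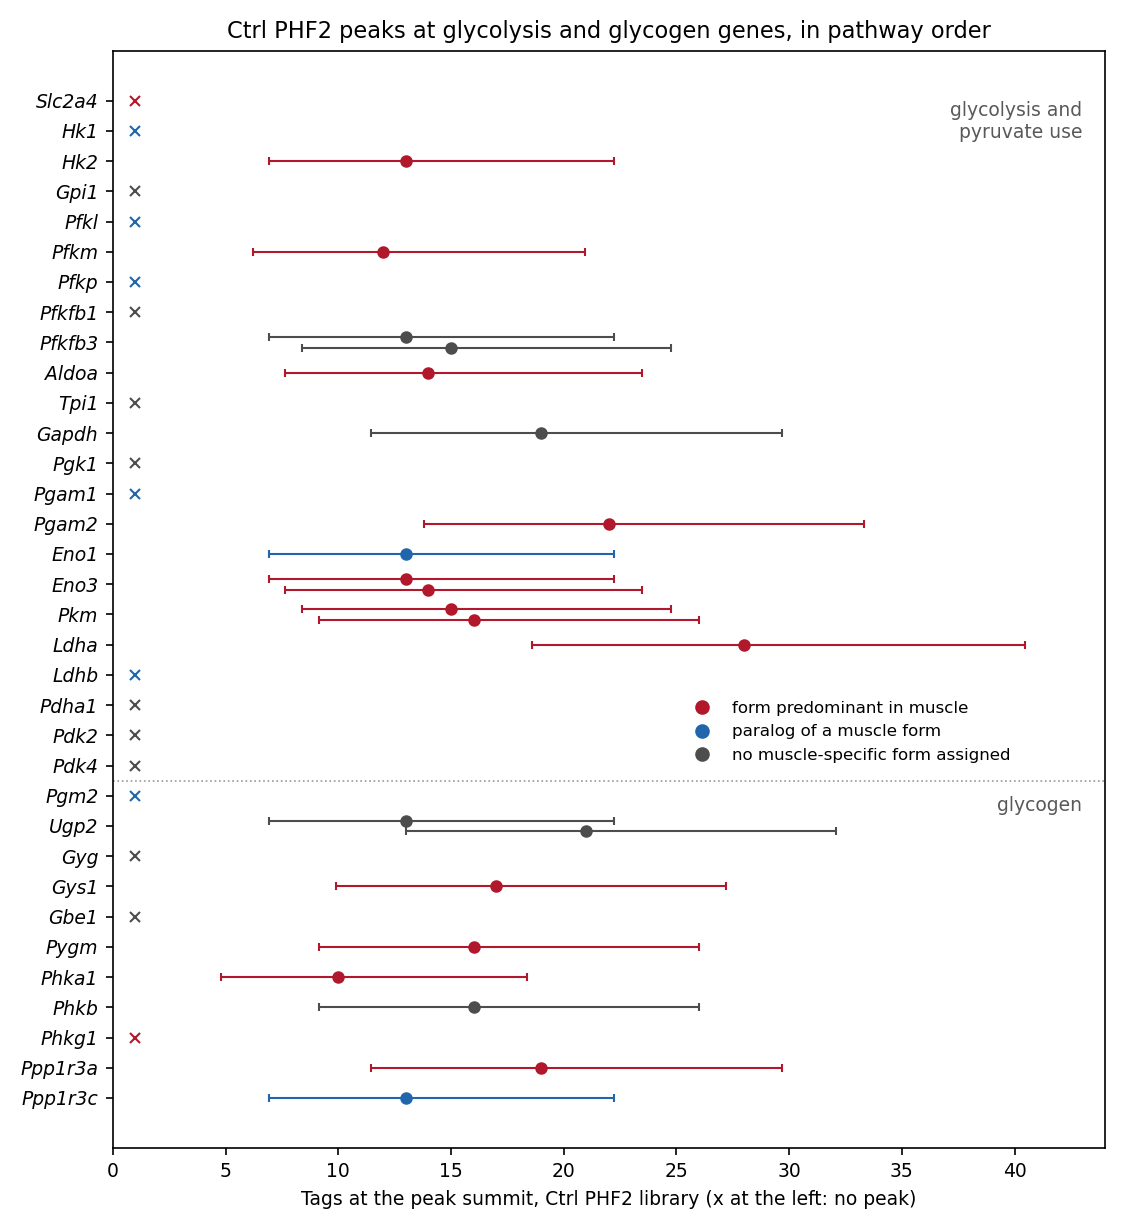
Tags at the summit of each Ctrl PHF2 peak (horizontal axis) for the 34 members in the order of the pathway; points are peaks, whiskers exact Poisson 95% intervals, and a cross marks a gene with no peak. Red marks the form predominant in muscle, blue a paralog of one and grey the rest; Ldha has the most tags, 28, and Phka1 the fewest, 10.

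At the entry of the pathway, Slc2a4 and the hexokinase gene Hk1, which serves most tissues, had no peak. Hk2, the hexokinase of insulin-responsive tissue, had 1 peak with 13 tags (exact Poisson interval 6.92 to 22.2) and a fold enrichment of 4.72, whose summit lay 1458 bp downstream of the start. Gpi1, the isomerase gene of the next step, had none. Phosphofructokinase, which commits sugar to glycolysis, has 3 subunit genes. The muscle subunit gene Pfkm had a peak with 12 tags (6.20 to 20.96), and its fold enrichment of 4.40 and -log10 q of 1.61 were the lowest of all member peaks. The liver and platelet subunit genes Pfkl and Pfkp had no peak. Of the genes for the bifunctional enzymes that set fructose 2,6-bisphosphate, the activator of phosphofructokinase, Pfkfb3 had a peak on each side of a start, with 13 and 15 tags and fold enrichments of 5.19 and 5.37, and Pfkfb1 none. The Pfkfb3 summit with 15 tags lay closer to the start of Gm52500 (486 bp) than to that of Pfkfb3 (566 bp).

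In the lower part of glycolysis, Aldoa, the aldolase gene of muscle, had a peak of 1251 bp with 14 tags (7.65 to 23.5) and a fold enrichment of 5.83. Gapdh had a narrow peak with 19 tags (11.4 to 29.7) and a fold enrichment of 6.41. The genes of the 2 steps beside it, Tpi1 for triose-phosphate isomerase and Pgk1 for phosphoglycerate kinase, had none. Peaks were thus found at 8 of the 11 enzyme steps from hexokinase to lactate dehydrogenase, and not at those of Gpi1, Tpi1 and Pgk1. A step was counted if any of its 1 to 3 member genes had a peak, and of all genes 7.38% had one. The hexokinase and phosphofructokinase steps rest on Hk2 and Pfkm alone. Their peaks had a -log10 q of 2.36 and 1.61 and were lost at a -log10 q of at least 3.

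Pgam2, the muscle phosphoglycerate mutase gene (Gene ID 56012, chromosome 11, 5801637 to 5803796), had the highest fold enrichment of the members, 10.02, at chr11:5802055-5803582. Its summit held 22 tags (13.8 to 33.3), and it ranked 85th of the 1621 Ctrl peaks by fold enrichment. The peak was the widest among the members at 1528 bp and covered 70.7% of this short gene of 2160 bp. It began 214 bp downstream of the start, so the promoter printed above was outside it. Pgam1, the form of most other tissues, had no peak, and the nearest Ctrl PHF2 peak was 62.9 kb away.

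Enolase was the step of glycolysis at which both a muscle form and a paralog among the members had a peak. Eno3, the muscle enolase gene, had 2, of 14 and 13 tags with fold enrichments of 5.30 and 4.72. The first of these had its summit at -1787 bp from the Eno3 start in the table and closer, at 739 bp, to the start of Pfn1, the profilin gene, and it lies in the annotated body of both genes. Eno1, the widespread form, had 1 peak with 13 tags and a fold enrichment of 4.72. These counts lie well within each other's Poisson intervals.

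At the end of glycolysis, Pkm, the pyruvate kinase gene of muscle and many other tissues, had 2 peaks just downstream of its 2 starts. The first had 16 tags (9.15 to 26.0) and a fold enrichment of 8.37, and the second 15 tags (8.40 to 24.7) and 7.79. Ldha, which encodes the lactate dehydrogenase subunit abundant in fast muscle (Gene ID 16828, chromosome 7, 46842274 to 46855627), had a peak at chr7:46845910-46846946, between its 2 starts. It held 28 tags (18.6 to 40.5), the most of any member, with a fold enrichment of 9.59. Ldhb, the subunit gene of heart and oxidative fibres, had no peak. Nor did Pdha1, a subunit gene of pyruvate dehydrogenase, or Pdk2 and Pdk4, whose kinases switch that complex off. The nearest Ctrl PHF2 peak to Pdk4, a gene known to rise on fasting, was 9258 kb away, the greatest distance of the 17 members without a peak.

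**Figure D3:**
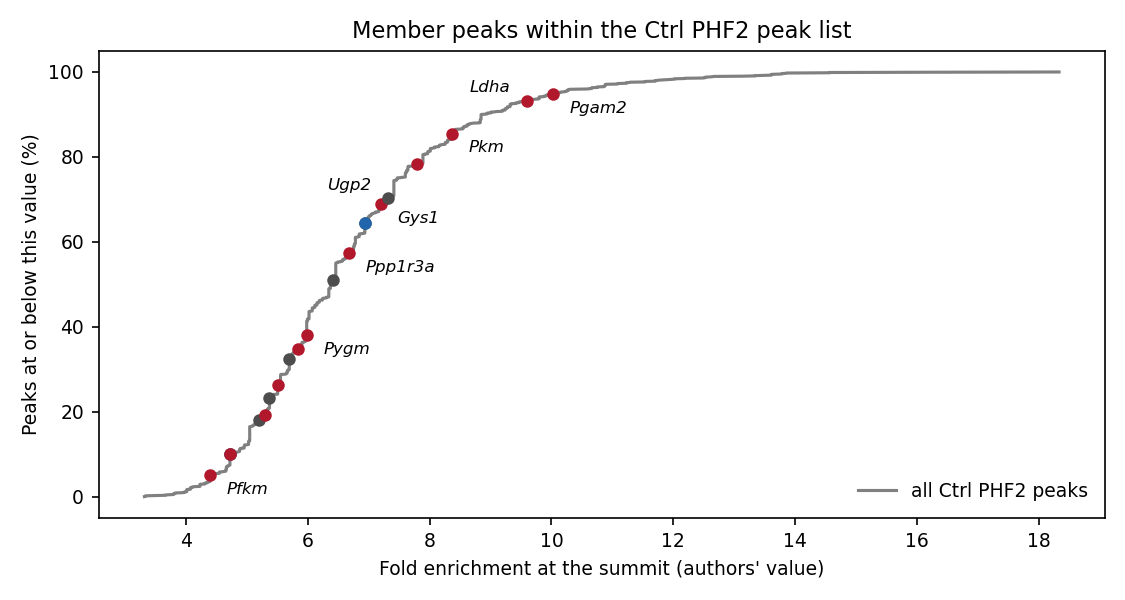
Cumulative distribution of the authors' fold enrichment (horizontal axis) over the 1621 Ctrl PHF2 peaks (grey line, percent of peaks at or below each value), with the 21 member peaks as points, coloured red for the form predominant in muscle, blue for a paralog and grey for the rest. Points with equal values lie on each other; Pgam2 and Ldha stand highest, at 10.02 and 9.59, and Pfkm lowest at 4.40.

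Glycogen synthesis starts from glucose phosphate, which phosphoglucomutase interconverts and Ugp2 activates as UDP-glucose. Ugp2 had 2 peaks, of 21 tags (13 to 32.1) and 13 tags (6.92 to 22.2), with fold enrichments of 7.32 and 6.94. Gys1, the muscle glycogen synthase gene, had a peak of 292 bp with 17 tags (9.90 to 27.2) and a fold enrichment of 7.20, at chr7:45435006-45435297, which also lies in the annotated body of its neighbour Ruvbl2. Gyg, for the glycogenin that primes the chain, Gbe1, for the branching enzyme, and Pgm2 had no peak. The symbol Pgm2 has been used for more than 1 mouse gene. Here it is Gene ID 66681, and Pgm1, which carried that symbol earlier, had no peak either.

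For glycogen breakdown, the muscle phosphorylase gene Pygm had a peak of 1336 bp with 16 tags (9.15 to 26.0) and a fold enrichment of 5.98. Phosphorylase kinase is built from 4 kinds of subunit. The muscle alpha subunit gene Phka1, on the X chromosome, had a peak with 10 tags (4.80 to 18.4) and a fold enrichment of 5.50. It was the member peak whose interval lay wholly below that of Ldha. The beta subunit gene Phkb had 16 tags and 5.70 in a peak that spans its start, though the summit lay closer to the start of Itfg1 (211 bp) than to that of Phkb (250 bp). Phkg1, the muscle catalytic subunit gene, had none. The delta subunit is calmodulin, whose genes are not members. Of these, Calm2 had a Ctrl PHF2 peak with 27 tags and a fold enrichment of 13.6, and Calm3 had none.

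Both members that encode subunits bringing protein phosphatase 1 to glycogen had a peak over the start, while their paralogs Ppp1r3b, Ppp1r3d, Ppp1r3e, Ppp1r3f and Ppp1r3g had none. Ppp1r3a, the form of striated muscle, had 19 tags (11.4 to 29.7) and a fold enrichment of 6.67 at chr6:14754549-14755335. Ppp1r3c, which is more widely expressed, had 13 tags (6.92 to 22.2) and 6.94 at chr19:36736392-36736708, with its summit 27 bp upstream of the start. As printed above, the first start lies in a CpG-poor stretch and the second in a CpG-rich one. A phosphatase catalytic subunit gene outside the list, Ppp1cb, had 2 Ctrl PHF2 peaks, with 19 and 12 tags, while Ppp1ca and Ppp1cc had none.

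Muscle forms were set against their paralogs in 14 families. In these the form predominant in muscle was named from general knowledge, after the peaks had been seen, and 11 of these 14 genes had a Ctrl PHF2 peak: Hk2, Pfkm, Aldoa, Pgam2, Eno3, Pkm, Ldha, Gys1, Pygm, Phka1 and Ppp1r3a. Of 28 paralogs, 2 had one, Eno1 and Ppp1r3c, and the background over all genes was 7.38%. Within 1 kb of a start the numbers were 9 of 13 and 2 of 24, over the genes with a start in the table, against 6.42% of 17492 genes. The muscle forms without a peak were Slc2a4, Pgm1 and Phkg1. Several muscle forms, such as Aldoa, Pkm, Ldha and Hk2, are also used outside muscle, while many paralogs, such as Pklr and Gys2, serve liver. The Pfkfb genes were left out because no single muscle form was assigned to them, and there Pfkfb2 and Pfkfb3 had Ctrl PHF2 peaks while Pfkfb1, which is used in liver and muscle, had none. In the KO library, neither set had a peak. Of all genes 0.713% had one, so this absence is no result about either set. Median gene length was 18742 bp in muscle forms and 17297 bp in paralogs.

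**Figure D4:**
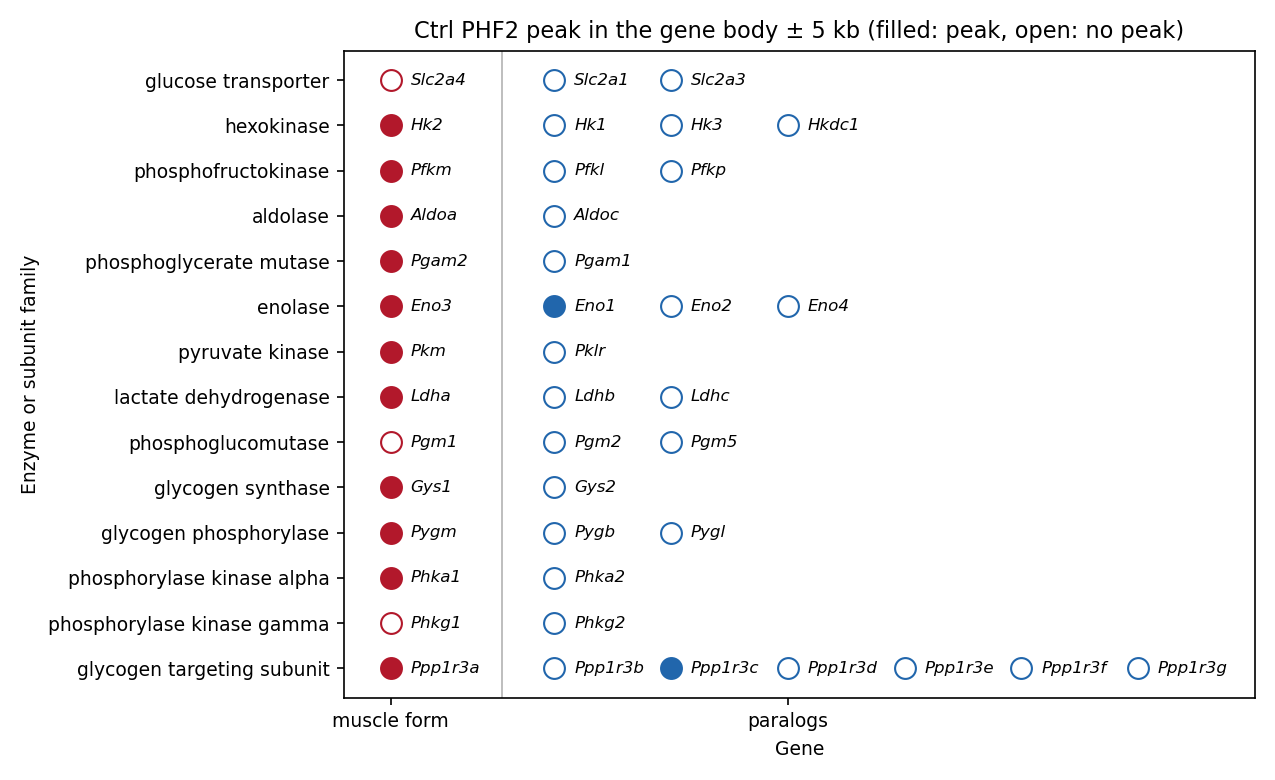
Presence of a Ctrl PHF2 peak in the gene body with 5 kb on each side, for 14 enzyme or subunit families (rows), with the form predominant in muscle at the left and its paralogs at the right. Filled circles are genes with a peak, which are 11 of 14 muscle forms and 2 of 28 paralogs, against 7.38% of all protein-coding genes.

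At Aldoa, Pfkm and Pfkfb3, which have several starts, a peak lay within 1 kb of some of them and not of others. At Aldoa the peak covered the starts at 126799254 and 126799178, while the first start, at 126800447, whose preceding 250 bases hold 0 CpG, lay over 1 kb from it. At Pfkm the peak lay beside the starts at 98108471 and 98108556, and those at 98092589 and 98112060 had none within 1 kb. Pfkfb3 had its peaks around the start at 11502090 and none at 11553929. At Pkm, Ugp2, Ldha and Eno1 all listed starts had a peak within 1 kb. These are starts in the annotation, and which of them is used in this muscle was not measured.

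Relative to the nearest start of its own gene, the summit of a member peak lay upstream in 5 of 21 cases, at or less than 500 bp downstream of it in 7, and 500 bp or more downstream in 9. The median was 332 bp downstream, and 7 genes had a start under the peak. Of the upstream summits, those at Pfkfb3, Eno3 and Ldha still lay inside the annotated gene body. The summits far inside the gene were at Hk2, Pfkfb3, Aldoa, Gapdh, Pgam2, Eno1, Eno3, Ugp2 and Pygm, from 566 to 1458 bp downstream. Measured to the nearest start of any gene, 8 of the 21 member summits (38.1%) were 500 to 2000 bp downstream. Of the 1222 summits of all Ctrl PHF2 peaks within 2 kb of a start, 24.6% were. The difference was not tested.

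**Figure D5:**
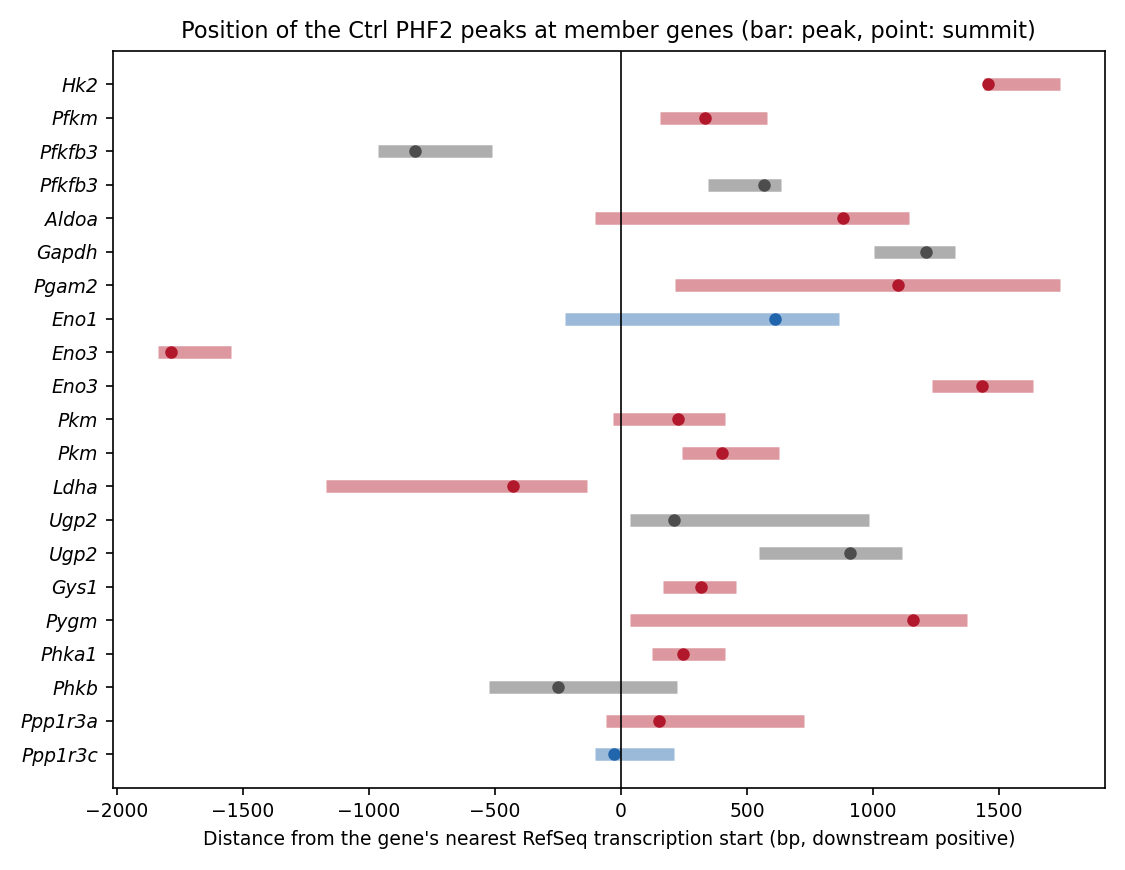
Position of the 21 Ctrl PHF2 peaks at members relative to the gene's nearest RefSeq start (horizontal axis, bp, downstream positive), with bars for peaks and points for summits, coloured red for the form predominant in muscle, blue for a paralog and grey for the rest. The summits run from -1787 bp at Eno3 to 1458 bp downstream at Hk2.

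Upstream sequence was compared between members with and without a peak, as a description with no test. Over the 28 listed promoters of members with a peak the median was 16 CpG in 250 bases, over the 21 of members without one it was 13, and over all promoters 6. GC boxes were in 14 of 28 (50%), in 7 of 21 (33.3%) and in 32.7% of all. Canonical E-boxes were in 4 of 28, in 1 of 21 and in 6.02% of all. Matches to the loose MEF2 form were in 2 of 28, in 1 of 21 and in 3.20% of all. E-boxes of any form went the other way, in 21 of 28 (75%), 17 of 21 (81.0%) and 66.2% of all. TATA boxes were in 1 of 28, in 1 of 21 and in 12.4% of all. AP-1 sites were in 1 of 28, in 0 of 21 and in 6.75% of all. The cAMP response element was in 1 of 28, in 0 of 21 and in 1.55% of all. Promoters of one gene overlap in places, so these counts are not independent.

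Among 58 further genes of the pathway, 9 (15.5%) had a Ctrl PHF2 peak, against 7.38% of all genes. Beside Calm2 and Ppp1cb they included Pfkfb2, which encodes another fructose 2,6-bisphosphate enzyme (17 tags), Dlat, for a core subunit of pyruvate dehydrogenase (10 tags), the glycerol phosphate dehydrogenase genes Gpd1 (14 tags) and Gpd2 (16 tags), and Mpc1 and Mpc2, for the mitochondrial pyruvate carrier (20 and 18 tags). The summit at Pfkfb2 lay 55 bp from the start of Yod1, and that at Mpc2 lay nearest to Dcaf6, and which gene these peaks belong to was not tested. A KO PHF2 peak was found at 2 of the 58 (3.45%), Gpd2 and Calm2, against 0.713% of all genes. Each KO peak had 12 tags (6.20 to 20.96). The overlapping Ctrl peaks had 16 (9.15 to 26.0) at Gpd2 and 27 (17.8 to 39.3) at Calm2. These intervals overlap at both genes, which does not show that the tags are equal. Read totals of the 2 libraries are unknown, and the difference was not tested.

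The absence of KO peaks at members was set against the KO list as a whole. In whole muscle, fewer cells that hold PHF2 at a gene and less of it per cell cannot be told apart. No KO tags are known where no peak was called, and read totals are unknown, so the part of depth was not tested. The lowest KO PHF2 peak had 10 tags, the number at the weakest member summit, and 11 of the 21 member peaks had at least the KO median of 15. By -log10 p, 4 of the 21 were under 6.19, that of the weakest KO PHF2 peak. With the Ctrl list cut to its 161 peaks of highest fold, 2 members, Pgam2 and Ldha, had a peak, against 0.781% of all genes. Over all genes with a Ctrl PHF2 peak, 126 of 1615 (7.80%) also had a KO PHF2 peak, a share that would give 1.33 of the 17 members. The 0 observed allows a share of up to about 17.6%, by the approximation of 3 divided by 17 and not by a Wilson interval. By peak, 0 of 21 member peaks overlapped a KO peak, against 92 of the 1552 Ctrl peaks with 10 to 28 tags (5.93%, Wilson interval 4.86 to 7.22). The Wilson interval for the 21 member peaks, 0 to 15.5%, takes in that share. With so few member peaks, a difference between members and other Ctrl peaks in KO presence was not detectable.

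Peak presence also says little about the make-up of the tissue. Of 10 fibre marker genes, 2 had a Ctrl PHF2 peak by the same rule (Des and Ttn), as did 2 of 4 endothelial markers (Cdh5 and Flt1) and 1 of 3 immune markers (Cd68), with 0 of 3 for satellite cells, 0 of 3 for fibro-adipogenic cells and 0 of 2 for red cells. None had a KO PHF2 peak. Over all genes the shares were 7.38% in Ctrl and 0.713% in KO, so a 0 in sets this small is no result about them. The cells that gave the peaks at members could not be told apart from these files.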

How the data were processed

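Peak lists came from 4 CUT&RUN libraries, grouped by sample title. Bowtie2, MACS2 and mm10 appear in the submitters' processing notes. Their versions and settings, and any control for peak calling, were not given in the sources used here. The 10 columns hold the authors' fold enrichment (a ratio over local background), the authors' -log10 p and -log10 q, a deposited score (the integer part of 10 times -log10 q, not used) and the summit. Starts were made 1-based.

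Tags at the summit were solved from the fold, taken as (pileup + 1) / (background + 1), and a Poisson p. Pileups were whole tags, within 0.005, times 0.649 in Ctrl and 0.609 in KO for all 309 and 84 distinct pairs of values. Where 2 whole numbers passed (21 and 2 pairs, Aldoa among them), the closer was taken. On 276 peaks simulated from the same formula, 100% of tags were recovered. That checks the solving step and cannot show that the deposited values follow the formula. Read totals are unknown.

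Gene bodies were those of RefSeq for GRCm38.p6. Starts, strands and promoters came from a second one, which held 33 of the 34 members, and 1627 of 1627 overlapping promoter pairs on opposite strands matched as reverse complements. The members, lists and families were chosen with earlier results of these data known. The genes named were every member, and other pathway genes with a PHF2 peak, except that some non-members are not reported here. Alternatives were other windows, the summit alone, -log10 q of at least 3, the nearest gene, a common p and lists of equal length. Software was pandas 2.3.3, SciPy 1.17.1, NumPy 2.4.6 and matplotlib 3.10.9 under Python 3.11.15.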

Additional observations from a re-analysis of the deposited data

How the results depend on the processing

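No paired analysis was possible because there was a single library for each group, and leaving one out would leave a group empty. Of the counts over members, other pathway genes or peaks, 39 alternative values stayed within 1.5 times the reported one and 2 moved. The 39 overstate stability. They include KO and IgG counts of 0, which settings that only narrow the rule could not raise. With no KO peak at members, the counts of Ctrl without KO also repeat the Ctrl counts. Of the numbers of peaks at a single member, 111 stayed within 1.5 times the reported one and 8 moved, all of them given below. With the Ctrl PHF2 list cut to the 161 peaks with the highest fold, as many as the KO list holds, 2 members (Pgam2 and Ldha) had a peak, against 0.781% of all genes. Within 1 kb of a start, 5 of the other pathway genes had a Ctrl PHF2 peak, where 46 of the 58 have a start in the table. This was 10.9% of the 46, against 6.42% of 17492 genes. Members with a Ctrl PHF2 peak numbered 17 with the gene body alone, 1 kb or 10 kb on each side or the summit in the window. Of all genes, 6.39%, 6.88%, 8.06% and 7.33% had one in these settings. By nearest gene there were 16 members, without Phkb, against 6.34% of all genes. At a -log10 q of at least 3 there were 14, against 6.59% of all genes. These 14 were without Hk2, Pfkm and Eno1 and with 1 of the peaks of Eno3. Within 1 kb of a start, against 6.42% of 17492 genes, the 14 lacked Hk2, Gapdh and Eno3. Members with a KO PHF2 or IgG peak stayed at 0 in the alternatives run. In these, 0.544% to 0.749% of all genes had a KO PHF2 peak. Reading Pgm2 as the older symbol of Pgm1 and a start window of 2 kb were added after seeing the data and left 17.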
